A study of Homo sapiens with 4 samples.

Results

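WWTR1, LATS2 and ANKRD1, 3 genes of the HIPPO pathway, were followed through ATOH1-TRAP-seq of human cerebellar progenitors. The 3 genes were chosen by name, with earlier results of these data known, and each was measured as the sum of its transcripts. They are 3 of 65852 genes and transcripts in the data, of which 1715 are genes that could be tied to a symbol, called joined genes here. The cells were of RUES2, an established human embryonic stem cell line, at day 28 in vitro (DIV28), and all libraries came from clonal cells with a lentiviral transgene in which a human ATOH1 enhancer drives EGFP-L10a, a ribosomal protein fused to green fluorescent protein. In all of them the culture had received dual SMAD inhibition with SB431542 and LDN-193189, CHIR99021, FGF2, BDNF and BMP7 on transwell membranes. TRAP (translating ribosome affinity purification) pulls down the tagged ribosomes with antibodies to GFP. The IP is meant to hold RNA on ribosomes of cells in which the enhancer is active. The input is meant to hold RNA of the whole culture. The comparison asks which of the pathway's messages were richer on the tagged ribosomes than in the culture, in 3 IP libraries from independent differentiation experiments against 1 input library.

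In the HIPPO pathway, a chain of kinases ends in LATS1 and LATS2, which phosphorylate the co-activators YAP1 and TAZ (the protein of WWTR1) and keep them in the cytoplasm, where they are broken down. When the chain is silent, YAP1 and TAZ enter the nucleus, bind the TEAD factors and switch on targets such as CCN2, CCN1, ANKRD1 and, as a negative feedback, LATS2 itself. ANKRD1 encodes an ankyrin repeat protein of muscle and of stretched or wounded cells. In the developing nervous system the pathway is known for its part in progenitor growth and organ size.

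For 2 libraries the sample label and the tag of the file did not go together. The title of the sample labelled input carries the tag T113, but the file with that tag was deposited under a sample labelled IP, and a file tagged T106 under the sample labelled input. The T113 library was taken here as the input and the 3 T106 libraries as IP1, IP2 and IP3. With T113 as input, 483 single-transcript genes matched the study's gene table in mean count and fold change, against 1, 1 and 0 when IP1, IP2 or IP3 was taken as input. ATOH1, the gene whose enhancer drives the tag, was at 44.1 ± 6.42 TPM (SD, n = 3) across the IPs and 0.304 TPM in the T113 library. It was higher in the IPs (edgeR adjusted p = 0.0203), 145-fold in TPM, with 7 reads in the T113 library. Whether that library came from the same cultures as the IPs was not tested. GAPDH, a glycolytic enzyme, lay below the T113 library in all 3 IPs, at a TPM ratio of 0.443. Its log2 fold change of -0.84 (SE 0.135) did not pass (edgeR adjusted p = 0.0563). Under the labels as they stand, ATOH1 would be at 31.7 ± 27.4 TPM in the IPs against 37.8 TPM in the input. Totals ran from 34603230 to 41173019 estimated reads per library. The input has no replicate, so the fits below assume that it varies as the IPs do. All 3 IP libraries carry T106 and the only input library T113. Anything else that goes with the tag, such as a separate culture, therefore cannot be told apart from IP against input.

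On hg19, the build of the files, GENCODE places WWTR1 (ENSG00000018408) at chr3:149235022-149454501, LATS2 (ENSG00000150457) at chr13:21547175-21635725 and ANKRD1 (ENSG00000148677) at chr10:92671853-92680844, each on the minus strand. The values count reads over the exons of the transcript models, untranslated regions included. Exons of WWTR1 overlap those of the antisense gene WWTR1-AS1, and since no step is stated to use strand, reads of the pair cannot be told apart, while exons of LATS2 and ANKRD1 overlap no other annotated gene. In the files, each of the 3 lies between joined genes of its own chromosome. Of 1640 joined genes with a position, 1640 had such a neighbour on at least 1 side.

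The promoters are shown first, since TEAD factors, through which TAZ acts, bind the letters GGAATG. RefSeq windows on GRCh38.p14, from 250 bases before to 50 after the gene's start, were searched on both strands (CATTCC on the other), and no matches overlap. Capitals mark the matches, and each sequence runs 5′ to 3′ on the gene's strand. ANKRD1 held 2 matches, beginning 220 and 128 bases before the start, in chr10:90921038-90921337. LATS2 held 1 match, beginning 10 bases into the gene, in chr13:21061537-21061836. CCN2, the joined target with the highest level, held 3 matches, beginning 169, 104 and 95 bases before the start, in chr6:131951323-131951622. WWTR1 held none in chr3:149657976-149658275, the window where 3 of its GENCODE transcripts begin, or in its other window at chr3:149703224-149703523, which is not printed.
ANKRD1: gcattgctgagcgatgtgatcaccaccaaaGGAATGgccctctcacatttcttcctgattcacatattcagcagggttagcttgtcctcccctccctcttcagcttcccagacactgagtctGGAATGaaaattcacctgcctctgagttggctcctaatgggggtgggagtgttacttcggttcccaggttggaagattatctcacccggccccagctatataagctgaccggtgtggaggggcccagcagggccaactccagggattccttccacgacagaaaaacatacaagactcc
LATS2: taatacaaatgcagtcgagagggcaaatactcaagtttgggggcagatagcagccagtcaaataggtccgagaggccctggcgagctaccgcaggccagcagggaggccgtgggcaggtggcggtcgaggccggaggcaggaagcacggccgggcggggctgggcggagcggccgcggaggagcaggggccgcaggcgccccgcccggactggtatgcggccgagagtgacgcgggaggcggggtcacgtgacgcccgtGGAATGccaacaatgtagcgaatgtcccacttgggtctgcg
CCN2: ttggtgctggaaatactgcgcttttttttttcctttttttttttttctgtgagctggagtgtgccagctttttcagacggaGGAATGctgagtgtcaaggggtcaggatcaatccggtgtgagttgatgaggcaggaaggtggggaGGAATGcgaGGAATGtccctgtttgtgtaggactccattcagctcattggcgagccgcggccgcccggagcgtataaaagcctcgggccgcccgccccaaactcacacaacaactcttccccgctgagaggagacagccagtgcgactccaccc
WWTR1: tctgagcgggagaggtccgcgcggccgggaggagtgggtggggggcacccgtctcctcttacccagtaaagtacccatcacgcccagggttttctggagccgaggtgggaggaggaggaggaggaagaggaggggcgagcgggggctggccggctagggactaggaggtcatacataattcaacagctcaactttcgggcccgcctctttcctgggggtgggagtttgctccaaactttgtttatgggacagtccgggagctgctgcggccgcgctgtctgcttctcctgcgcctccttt
Of all 35116 promoters of this length, 14.0% held at least 1 match, 1.37% at least 2 and 0.128% at least 3. Of the 16 genes with such a promoter in a list of 22 commonly used YAP/TAZ targets, 9 held a match in any of their windows, or 56.2%, and counted in the same way 16.7% of all 27305 genes did. These shares were not tested against each other, and the number of windows per gene was not compared between targets and all genes. A match is a run of letters, not a measured binding site, and no binding was measured here.

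WWTR1, the effector, was lower on the tagged ribosomes. These are bulk samples, in which fewer cells of a type and less RNA per cell cannot be told apart. Its level was 54.4, 54.8 and 68.0 CPM (estimated reads per 1000000 reads of the library, scaled by TMM) in IP1, IP2 and IP3, and 187.3 CPM in the input. The 3 IPs sat close together, with IP3 the highest of them, and none came near the input. The mean was 59.1 ± 7.74 CPM (SD, n = 3), so that the input was 3.17-fold higher, with a counting interval of 3.10 to 3.24 from the 7574 reads of the input (95% Poisson, counting error only). The log2 fold change of IP over input was -1.66 (SE 0.172, edgeR adjusted p = 0.0337). Per length, WWTR1 stood at 14.0 ± 1.23 TPM (SD, n = 3) in the IPs against 56.1 TPM in the input.

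LATS2, the kinase that restrains TAZ, was higher on the tagged ribosomes. Its level was 32.7, 37.6 and 31.7 CPM in the 3 IPs against 8.78 CPM in the input. All IPs stood well above the input and IP2 was the highest. The mean of 34.0 ± 3.17 CPM (SD, n = 3) was 3.87-fold above the input, with a counting interval of 3.49 to 4.31 from the 355 reads of the input. The log2 fold change was 1.95 (SE 0.233, edgeR adjusted p = 0.0390). LATS2 was the scarcest of the 3 messages in the input per length, at 2.37 TPM, and reached 7.31 ± 0.828 TPM (SD, n = 3) in the IPs.

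ANKRD1, the target, had the largest difference of the 3 between IP and input in CPM. In TPM the ratio of IP to input was 3.92 for ANKRD1 and 0.250 for WWTR1. WWTR1 thus differed slightly more in TPM, and the order depends on the scale. Its level was 70.1, 69.2 and 59.1 CPM in the IPs against 13.4 CPM in the input. IP3 was the lowest of the IPs and was still far above the input. The mean of 66.1 ± 6.09 CPM (SD, n = 3) was 4.92-fold above the input, with a counting interval of 4.53 to 5.37 from 543 reads. The log2 fold change was 2.30 (SE 0.198, edgeR adjusted p = 0.0290). Per length it stood at 43.7 ± 5.76 TPM (SD, n = 3) in the IPs, close to ATOH1 at 44.1 TPM, and at 11.1 TPM in the input.

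**Figure D1:**
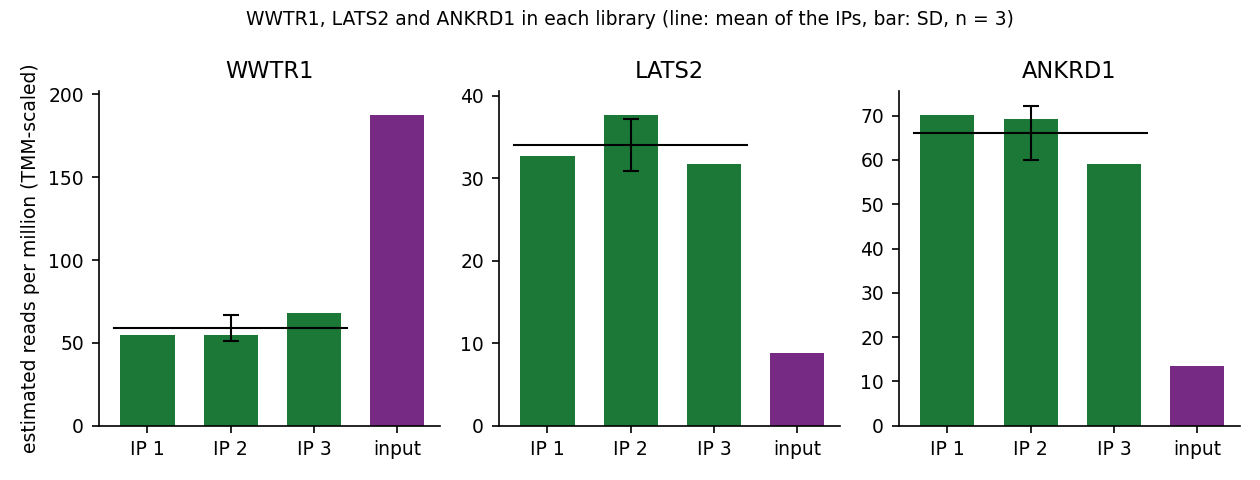
Level of WWTR1, LATS2 and ANKRD1 in each library, as CPM scaled by TMM (vertical axis, from 0, with its own range in each panel); green columns are the 3 IPs, the purple column is the input, and the line and error bar give the mean and SD of the IPs. WWTR1 was at 54.4 to 68.0 in the IPs against 187.3 in the input, while LATS2 (31.7 to 37.6 against 8.78) and ANKRD1 (59.1 to 70.1 against 13.4) were above the input in every IP.

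These calls are to be read against the rest of the data. Of the 43595 genes and transcripts tested, 2.32% were called higher in the IPs and 1.5% lower. Of the 1715 joined genes, 28.6% were called higher and 28.1% lower, and the IPs lay on 1 side of the input in every one of the 1715. The joined genes all stand in the part of the study's table at hand, which holds rows with the smallest adjusted p-values, and fold change served in tying transcripts to rows, so that the direction of a joined gene is not independent of the study's own result. Among joined genes, WWTR1 ranked 262 of 863 by the size of a negative fold change, and ANKRD1 208 and LATS2 263 of 852 by that of a positive one. The median log2 fold change was -1.37 over the negative and 1.35 over the positive joined genes, and 0.10 over everything tested. The SD of log2 CPM among the IPs was 0.18 for WWTR1, 0.13 for LATS2 and 0.14 for ANKRD1, beside a median of 0.15 over the joined genes.

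The calls did not stand under every way of fitting. In limma-voom the 3 adjusted p-values were 0.0693 for WWTR1, 0.0703 for LATS2 and 0.0693 for ANKRD1, and limma-voom called 0 genes and transcripts, with 3772 higher and 6369 lower before adjustment (p under 0.05). Without IP1, IP2 or IP3 in turn none of the 3 passed in edgeR either, with adjusted p-values of 0.106 to 0.194 for WWTR1, 0.109 to 0.199 for LATS2 and 0.106 to 0.194 for ANKRD1, while DESeq2 called all 3. DESeq2 called 13.3% of everything tested higher and 9.18% lower, and all of the joined genes (49.7% higher and 50.3% lower), which had been drawn from the study's own DESeq2 table, so that its calls say nothing particular to the 3. With the libraries grouped by their labels, the log2 fold changes turned to 0.93 for WWTR1, -0.33 for LATS2 and -0.57 for ANKRD1, with SEs of 0.864, 0.863 and 0.927 and no call.

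**Figure D2:**
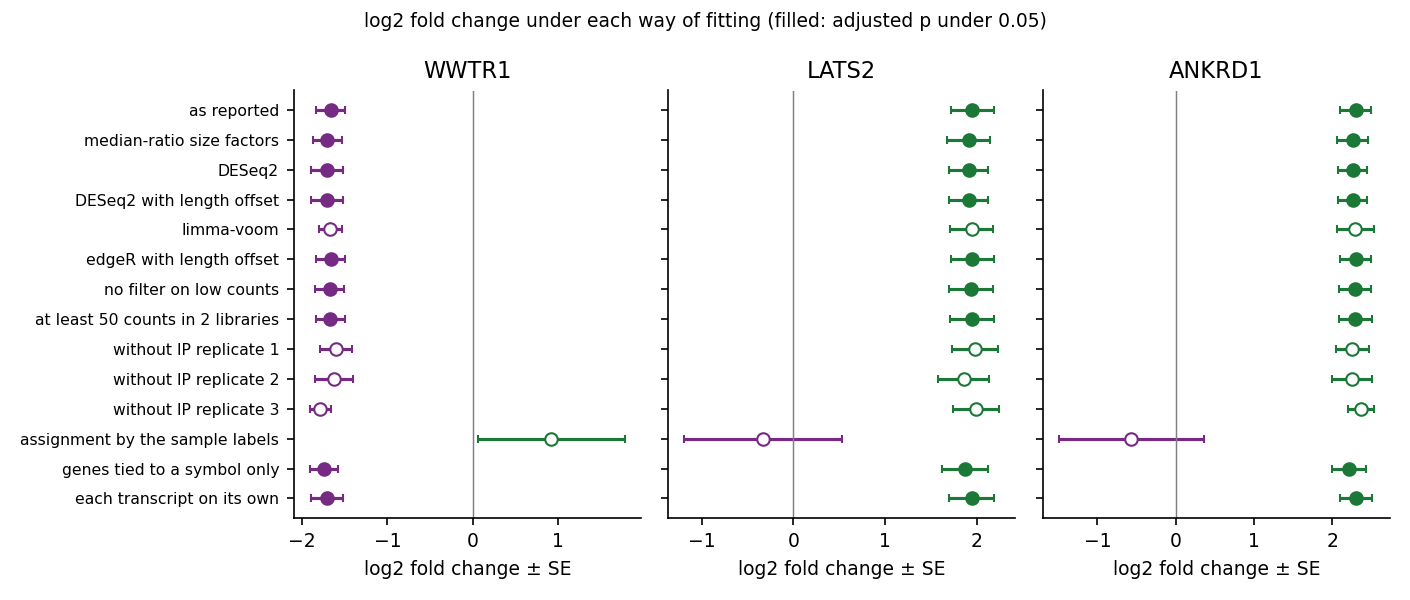
Log2 fold change of IP over input (horizontal axis) with its standard error for WWTR1, LATS2 and ANKRD1, as reported and under 13 other ways of fitting (vertical axis), filled where the adjusted p was under 0.05. For each transcript on its own, the point is the gene's model with the most reads. All 3 genes kept their side of 0 except when the libraries were grouped by their labels, where WWTR1 was at 0.93, LATS2 at -0.33 and ANKRD1 at -0.57, and the open points are the fits in which they did not pass.

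A ratio of 2 genes within a library does not depend on how libraries are scaled to each other. ANKRD1 over WWTR1 in TPM was 3.54, 3.50 and 2.41 in the 3 IPs against 0.198 in the input, a ratio 15.9-fold higher in the IPs. ANKRD1 thus exceeded WWTR1 in every IP and was below it in the input. LATS2 over WWTR1 was 0.539, 0.621 and 0.421 in the IPs against 0.0423 in the input, 12.5-fold higher in the IPs. WWTR1 remained the more abundant of the pair in every library. ANKRD1 over LATS2 was 5.98 ± 0.515 (SD, n = 3) in the IPs against 4.69 in the input, a 1.27-fold difference, with the input below the lowest IP (5.64). With 3 libraries against 1, a one-sided exact permutation test of the first 2 ratios gave p = 0.25 for each, the smallest it can give. In every joined gene the IPs lay on the same side of the input. The choice of a higher gene over a lower one thus set this outcome in advance, and the test adds no support.

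**Figure D3:**
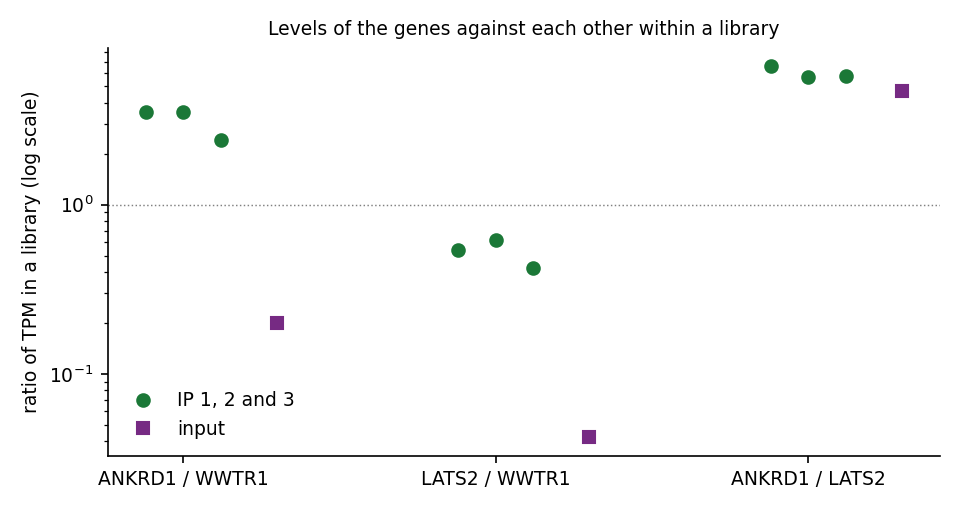
Ratio of TPM between genes within each library (vertical axis, log scale), with circles for the 3 IPs and squares for the input; the dotted line marks equal levels. ANKRD1 over WWTR1 lay at 2.41 to 3.54 in the IPs against 0.198 in the input, and LATS2 over WWTR1 at 0.421 to 0.621 and 0.0423, while ANKRD1 over LATS2 lay at 5.64 to 6.57 and 4.69.

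Ordered by level, the 3 genes stood differently in the 2 kinds of sample. In the IPs the order per length was ANKRD1 (37.1 to 47.9 TPM), WWTR1 (13.1 to 15.4 TPM) and LATS2 (6.49 to 8.15 TPM), and no ranges overlapped. In the input it was WWTR1 (56.1 TPM), ANKRD1 (11.1 TPM) and LATS2 (2.37 TPM). Among the 1715 joined genes by TPM, ANKRD1 ranked 635 in the IPs against 1338 in the input, WWTR1 1103 and 754, and LATS2 1370 and 1551.

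WWTR1 is given by 4 transcript models, LATS2 by 2 and ANKRD1 by 1. Of the reads of WWTR1, the model uc003exf.3 took 60.3%, 77.9% and 56.7% in the IPs beside 66.6% in the input. It was the main model in every library, and its share in the input lay within the range of the IPs. The model uc003exe.3 took 29.7%, 22.1% and 14.7% in the IPs beside 21.4% in the input, again inside their range. The model uc021xfm.1 took 10.0%, 0.0148% and 26.0% in the IPs beside 12.1% in the input, and uc003exh.3 appeared only in IP3, with 2.60%. Salmon divides reads that fit several models, so the shares of models that overlap are estimates and the sum is firmer than its parts. Fitted alone, uc003exf.3 had a log2 fold change of -1.71 (SE 0.185, edgeR adjusted p = 0.0396), close to that of the gene, and uc003exe.3 had -1.64 (SE 0.328, adjusted p = 0.0880). In LATS2, uc001unr.4 held all reads but 34.3, which fell to the other model in IP3.

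**Figure D4:**
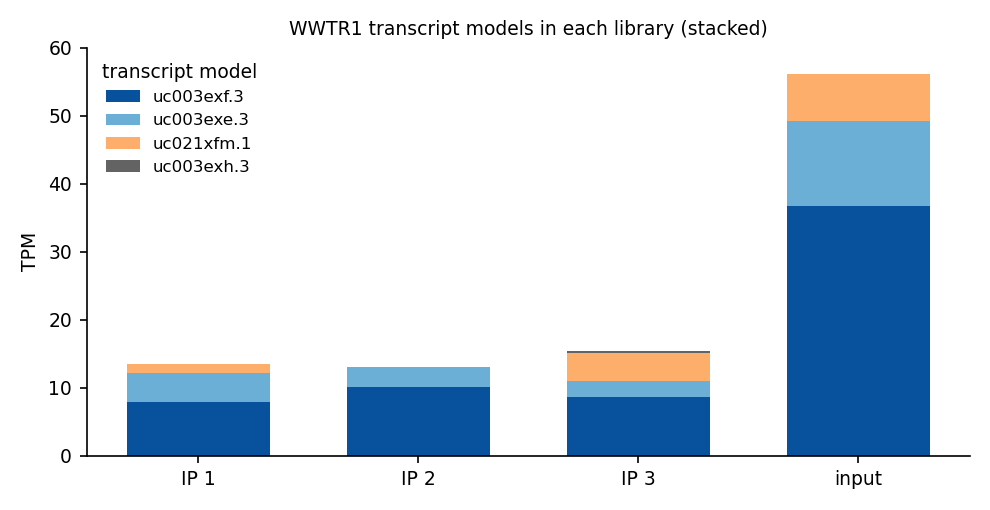
TPM of the 4 transcript models of WWTR1 (vertical axis, stacked from 0) in the 3 IPs and the input. The model uc003exf.3 was the largest part in every library, at 7.96 to 10.1 TPM in the IPs against 36.7 TPM in the input, while uc021xfm.1 went from almost none in IP2 to 4.05 TPM in IP3.

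Of 57 genes listed for the HIPPO pathway, 8 were joined, and the others, among them YAP1, LATS1 and the TEAD factors, were not analysed here. Of the 8, LATS2 was called higher, WWTR1, FRMD6 and AMOTL1 lower, and 4 did not pass, with a median log2 fold change of -1.10 over the 8. Of all 1715 joined genes, edgeR called 28.6% higher and 28.1% lower. With so few genes, the counts say nothing particular to the pathway. Upstream, FRMD6, a FERM protein that activates the kinases, was at 44.1, 60.7 and 56.4 CPM in the IPs against 177.3 CPM in the input, which gave -1.72 on the log2 scale (SE 0.204, edgeR adjusted p = 0.0387). AMOTL1, an angiomotin of cell junctions that binds YAP1 and TAZ, was at 52.3, 54.7 and 43.2 CPM in the IPs against 127.0 CPM in the input, with -1.34 (SE 0.175, adjusted p = 0.0421). Both lay below the input in all IPs, as WWTR1 did. DCHS1, a giant cadherin that is the ligand of FAT4, had a log2 fold change of -1.48 (SE 0.241, adjusted p = 0.0575) and did not pass. CRB2, an apical polarity protein of epithelia and neural progenitors, was at 10.2, 10.5 and 12.5 CPM in the IPs and 1.98 CPM, or 80 reads, in the input. Its log2 fold change of 2.48 (SE 0.437, adjusted p = 0.0660) exceeded that of LATS2 in size, but it did not pass. Among the brakes, neither the 14-3-3 protein YWHAZ, which holds phosphorylated YAP1 and TAZ in the cytoplasm (-0.86, SE 0.154), nor the casein kinase CSNK1E (0.95, SE 0.192) passed.

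Of the 22 YAP/TAZ targets, 8 were joined, and of these ANKRD1 and LATS2 were called higher, 0 were called lower by edgeR and 6 did not pass, with a median log2 fold change of -0.79. The called targets are those chosen by name for this report. Beside 28.6% of all joined genes called higher and 28.1% lower, the counts say nothing particular to the targets. All 5 targets with a negative fold change had an unadjusted p under 0.05 in edgeR. Joined genes were drawn from rows of the study's table with the smallest adjusted p-values, so such p-values are not particular to the targets. All 3 IPs were above the input in ANKRD1, LATS2 and AXL and below it in the other 5. CCN2, a matricellular protein and the target most often used as a readout, was at 1380, 1040.5 and 1141 CPM in the IPs against 2323 CPM in the input. The IPs lay below the input with IP1 the highest, opposite to ANKRD1, and the log2 fold change of -0.97 (SE 0.180, adjusted p = 0.0719) did not pass. AXL, a receptor tyrosine kinase, was at 156.3, 182.5 and 163.9 CPM in the IPs against 89.0 CPM in the input, with 0.91 (SE 0.149, adjusted p = 0.0572). FOXF2, a forkhead factor of mesenchyme, stood at -2.38 (SE 0.501), NT5E, a surface nucleotidase, at -1.82 (SE 0.343), TGFB2, a ligand of the TGF-beta family, at -0.97 (SE 0.169), and the matrix protein CCDC80 at -0.62 (SE 0.136), and none of these passed. CCN2 over ANKRD1 in TPM was 16.2, 12.4 and 15.9 in the IPs against 142.5 in the input. CCN2 was thus the more abundant target in every library, by a margin 9.60-fold wider in the input. Of the 8 joined targets, 6 (LATS2, CCN2, ANKRD1, AXL, FOXF2 and TGFB2) held a GGAATG in a promoter window, and these included genes on either side of the input. DESeq2 called all 8 pathway genes and all 8 targets, 3 higher and 5 lower in each, as it did every joined gene. limma-voom, and edgeR without any 1 of the IPs, called 0 of the 8 pathway genes and 0 of the 8 targets with every direction kept, and grouping the libraries by their labels turned every one of these directions.

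**Figure D5:**
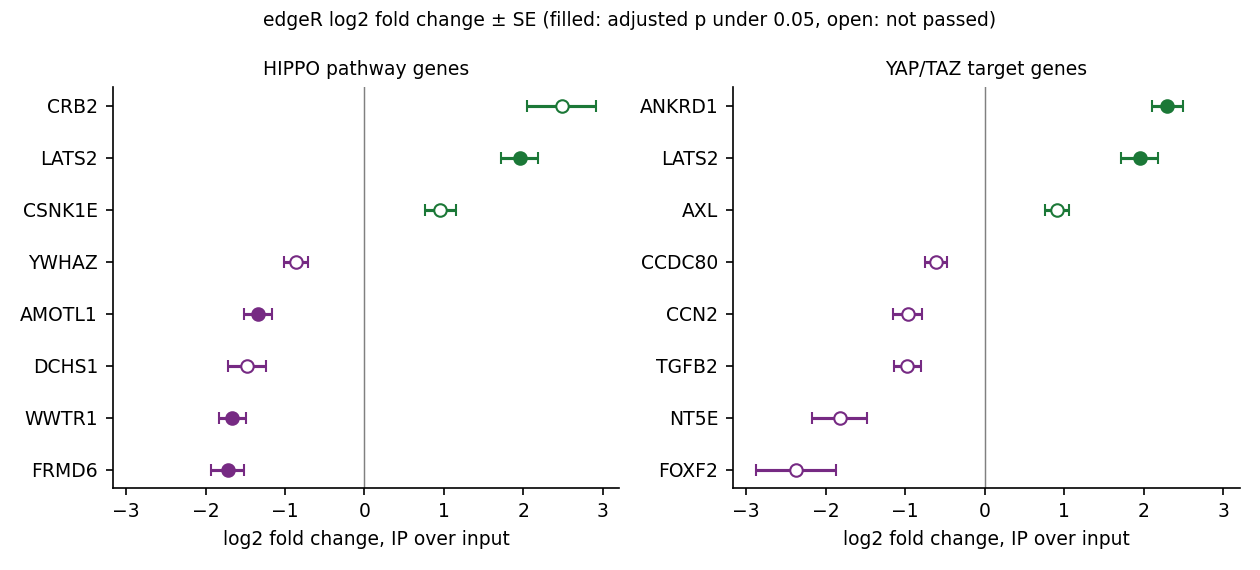
Log2 fold change of IP over input (horizontal axis) with its standard error for the 8 joined HIPPO pathway genes (left) and the 8 joined YAP/TAZ targets (right), with filled circles for adjusted p under 0.05 in edgeR. LATS2 (1.95) and ANKRD1 (2.30) are filled on the right of 0, and WWTR1 (-1.66), FRMD6 (-1.72) and AMOTL1 (-1.34) are filled on the left.

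Markers of other cells were measured beside the 3 genes. Like all 1715 joined genes, each joined marker had its IPs on 1 side of the input, 852 of the 1715 above it and 863 below. Of the joined genes, edgeR called 28.6% higher and 28.1% lower. The marker lists were chosen with earlier results of these data known, so the calls of markers are not independent support. Of 7 fibroblast and mesenchyme markers, 4 were joined and all 4 were below the input, with COL1A1 (-1.46 on the log2 scale) and COL1A2 (-2.31) called lower and PDGFRB (-1.25) and DCN (-1.42) not passing. Their summed level was 2454 to 2794 CPM in the IPs against 10441 CPM in the input, and 1242 to 1542 TPM against 11268 TPM, of which COL1A2 alone made 10365 TPM in the input. Of 11 endothelial markers, 3 were joined and split, with TM4SF1 (-4.17) and ADGRL4 (-3.38) lower and CLDN5 (5.12) higher, and their sum was 116 to 126 CPM in the IPs against 1285 CPM in the input. Of 12 heart and skeletal muscle markers, TNNT1 (3.15) and TNNI1 (2.74) were joined and both were higher, with a sum of 164 to 203 CPM against 25.3 CPM, while MYH6, MYH7, TNNT2, ACTC1, DES, MYOG and MYOD1 were not analysed here. All 6 listed markers of the ATOH1 lineage were joined, and all were higher, with ATOH1 at 7.49, NHLH1 at 6.31, HES6 at 5.87, BARHL1 at 5.51, INSM1 at 5.11 and CNTN2 at 4.61. Their sum was 1096 to 1534 CPM against 23.9 CPM. Of 7 neural stem cell and astroglial markers, 4 were joined and split, with SOX2 (3.49) higher, SOX9 (-1.81) lower and FABP7 (1.74) and S100B (-1.59) not passing, and their sum was 107 to 128 TPM against 209 TPM. The part of these cells in the results for WWTR1, LATS2 and ANKRD1 was not tested.

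The joined genes with profiles most like each of the 3 were found by the Euclidean distance between log2 CPM over the 4 libraries, each gene centred on its mean, among 1714 others. For WWTR1 they were SMARCA1, a chromatin remodelling ATPase (distance 0.046, log2 fold change -1.64), NSF, an ATPase of vesicle fusion (0.082, -1.59), and KIAA0922 (0.11, -1.65). For LATS2 they were SVIP (0.061, 1.93), NPR3, the clearance receptor for natriuretic peptides (0.065, 1.89), and SOX11, a transcription factor of young neurons (0.13, 1.85). For ANKRD1 they were LOC440173 (0.072, 2.35), COMTD1 (0.082, 2.26) and DBNDD2 (0.084, 2.30). With 4 libraries, such a likeness rests mainly on the difference between the IPs and the input.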

How the data were processed

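RNA-seq was made from 3 ATOH1-TRAP IPs and 1 input of RUES2-derived cells at DIV28 (SMART-Seq v4, Nextera XT, single reads). The authors ran Salmon 0.8.2 on the UCSC known genes of hg19, and deposited estimated counts and TPM for each of 69548 transcripts per library. Their gene-level values (DESeq2 1.20.0) hold the study's own comparison. These values served to choose which transcripts were summed and named as a gene, and to check which library is the input. The files carry transcript identifiers and no symbols, so a gene was joined as the sum of 1 to 20 neighbouring transcripts whose mean count, within 3% before an exact check of the fold change (tolerance 1e-05 in log2), matched a row of the 1998 rows of the study's table at hand. Of 1775 genes with a match, 55 with several and 5 that shared a transcript were left out. Joined genes were summed and every other transcript kept on its own.

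Estimated counts were rounded to whole numbers and tested with edgeR 4.0.16 (R 4.3.3): TMM scaling, filterByExpr with a minimum count of 10, glmQLFit and glmQLFTest, with Benjamini-Hochberg adjustment over all 43595 genes and transcripts tested and a threshold of 0.05. The SE given with an edgeR fold change is the size of that fold change divided by the square root of the quasi-likelihood F. It is not a standard error that edgeR reports, while the SEs of DESeq2 and limma-voom come from their fits. The log2 CPM for profiles had a prior count of 2. limma 3.58.1, DESeq2 1.42.0 and other scalings and filters were alternatives. The scripts were tested on simulated data. The IPs came from separate differentiation experiments, and the group with 1 library is assumed to vary like the other. Libraries were grouped by file tag, and by sample label as an alternative. Reads carry no molecular identifiers, so intervals cover counting error only.

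The genes, gene lists and tests were chosen with earlier results of these data known. Named are the 3 genes, every joined member of the lists except 1 that is not reported here, ATOH1 and GAPDH as checks, and the 3 joined genes nearest to each of the 3 in profile. Promoters are RefSeq sequences on GRCh38.p14, matched by symbol, and positions of genes are from GENCODE v44 lifted to GRCh37 (hg19).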

Additional observations from a re-analysis of the deposited data

How the results depend on the processing

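WWTR1, LATS2 and ANKRD1 kept their direction in 12 of 13 alternatives and passed the threshold in 8 of those 12. In the fit of each transcript on its own, a gene was scored by its model with the most reads. The other models of WWTR1 and LATS2 did not pass in that fit. Among the fits that the 3 genes passed, DESeq2 and the joined genes fitted alone called every joined gene. The direction was tied to the study's fold change when genes were joined, so neither count is independent support. With the libraries grouped by their labels the log2 fold changes reversed, to 0.93 for WWTR1, -0.33 for LATS2 and -0.57 for ANKRD1, and edgeR called 0 of 43595 genes and transcripts, with 1031 higher and 229 lower before adjustment (p under 0.05), and 0 pathway genes and 0 targets. Under limma-voom the fold changes were -1.67, 1.95 and 2.29 and did not pass, and 0 genes and transcripts, 0 pathway genes and 0 targets were called, with 3772 higher and 6369 lower before adjustment. Leaving out 1 IP at a time, the fold changes ran from -1.78 to -1.61, from 1.86 to 2.00 and from 2.25 to 2.37, none passed, and edgeR called 0 genes and transcripts, 0 pathway genes and 0 targets each time, with 3558 to 4256 higher and 3113 to 3659 lower unadjusted; these fits have 1 library fewer, and whether that is the cause was not tested. Against 1666 genes and transcripts, 4 pathway genes and 2 targets called as reported, DESeq2 called 9806, 8 and 8, DESeq2 with a length offset 9832, 8 and 8, a floor of 50 counts in 2 or more libraries 3026, 7 and 6, and the joined genes fitted alone 8 and 8. That last fit called all 1715 joined genes and has fewer genes in its adjustment; the cause of the other shifts was not tested. The common coefficient of variation was 0.944 over everything tested and 0.145 over the joined genes alone.

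No paired analysis was possible because the input is a single library, so that IP and input share fewer than 2 replicate numbers. Depth limits LATS2 and ANKRD1 little, at 355 and 543 reads in the input; the single input limits all 3 genes.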
